A study of Drosophila melanogaster with 4 samples.

Results

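Photoreceptors of the adult *Drosophila* eye were compared with the other neurons that were recovered from the same dissociated eyes. A cell was taken as a photoreceptor when *ninaE*, the gene of the rhodopsin of the outer photoreceptors, made up at least 5% of its UMIs (unique molecular identifiers, which count RNA molecules), or when *Rh3*, *Rh4*, *Rh5* and *Rh6*, the rhodopsins of the inner photoreceptors, together made up at least 2%, and when it held no UMI of *fne*, an RNA-binding protein of neurons. A cell was taken as another neuron with at least 2 UMIs of *fne*, under 2% *ninaE* and under 0.5% of the inner rhodopsins. On both sides, cells had over 200 genes, under 20% mitochondrial UMIs, under 2% *Pdh* (a retinal dehydrogenase gene of pigment cells) and no UMI of *repo* (the glial transcription factor). Of 40076 cell barcodes in all, 34606 lay within the limits on genes and mitochondrial UMIs, 19800 were photoreceptors and 3008 were other neurons. Photoreceptors numbered 6205, 5246, 3881 and 4468 and other neurons 1400, 530, 458 and 620 in the libraries of males at 1, 3 and 7 days and of females at 1 day, and values per library are given in this order throughout. Among the photoreceptors, 12893 were outer cells by their rhodopsin, with *ninaE* at 5% or more and the inner rhodopsins under 0.5%, and 5610 were inner cells with the inner rhodopsins at 2% or more. Of the inner cells, 2609 also had *ninaE* at 5% or more, and 1297 further photoreceptors were in neither subset.

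The 4 libraries were single-cell RNA-seq of eyes pooled from several flies of the wild-type strain Canton-S, with males at 1, 3 and 7 days after eclosion and females at 1 day. No genotype or treatment differed between them, and all eyes were dissociated with actinomycin D, an inhibitor of transcription, in the solution. Each age and sex was 1 library, so the libraries served as 4 paired replicates of the comparison between the sides and nothing was tested between ages or sexes.

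Fly photoreceptors are sensory neurons that detect light in the rhabdomere, a stack of microvilli packed with rhodopsin. Light-activated rhodopsin acts through a Gq protein and phospholipase C to open TRP and TRPL cation channels, and the resulting graded depolarisation drives the release of histamine onto neurons of the lamina and medulla. The neurons of the optic lobe and brain mostly use acetylcholine, glutamate or GABA, receive synaptic input through receptors of these transmitters, and many fire sodium spikes.

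The members were chosen by their measured UMIs of the rhodopsins, *fne*, *Pdh* and *repo*, so these genes are given without a test. *ninaE* took 10.96, 12.8, 13.5 and 12.6% of the UMIs of the photoreceptors and 0.132, 0.0819, 0.0902 and 0.0927% of those of the other neurons, and 98.4, 84.9, 67.5 and 96.8% of the other neurons held at least 1 UMI of it. On the normalised scale used for all genes below, its log2 ratio between the sides was 7.41, 8.61, 8.49 and 8.29. The inner rhodopsins together took 2.71, 2.63, 4.73 and 3.58% in photoreceptors and 0.0154, 0.00766, 0.00681 and 0.0125% in other neurons. *fne* had 14726, 5484, 3279 and 11263 UMIs in other neurons. *Pdh* took 0.160, 0.0913, 0.0887 and 0.0942% in photoreceptors and 0.143, 0.0597, 0.0511 and 0.0327% in other neurons. The log2 ratio of *Pdh* on the normalised scale was 1.20, 1.94, 2.06 and 2.72. Free RNA in droplets gives UMIs of abundant genes to every cell, and its part in the low levels of photoreceptor genes in other neurons was not told apart from expression. Cells were scarce at the rhodopsin limits, with 33, 4, 2 and 18 cells just inside the 5% limit of *ninaE* and 38, 6, 3 and 7 just outside it, between 4 and 5%. The limit on *fne* cut through more cells, since 186, 56, 70 and 24 other neurons had exactly 2 UMIs and 169, 70, 62 and 27 cells with 1 UMI were left out. A further 136, 36, 24 and 54 cells met a rhodopsin limit of photoreceptors but had 2 or more UMIs of *fne*, and were on neither side.

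Whole libraries held 17654226 to 98373676 UMIs, fewest at 7 days, and pairs of libraries shared 12 to 37 cell barcodes. Photoreceptors had a median of 7922, 4396, 2094 and 8998.5 UMIs and other neurons 4644, 4324.5, 3577 and 7906.5. At 1000 UMIs per cell, photoreceptors showed a median of 424, 392, 383 and 387 genes and other neurons 598, 592, 608 and 583, fewer in photoreceptors in 4 of 4 libraries (exact sign-flip p = 0.13, the smallest that 4 pairs allow). Thinning left out 256, 474, 741 and 304 photoreceptors and 32, 17, 37 and 6 other neurons with fewer UMIs. The thinned UMIs still included the genes that chose the cells, and *ninaE* had a median share of 11.8, 13.6, 16.2 and 14.1% per photoreceptor. The lower gene number of photoreceptors was thus partly set by the choice of cells, which the sign-flip p does not cover. Without thinning the median numbers of genes were 1492, 972, 608 and 1392 against 1644.5, 1500, 1397 and 2042.5. Among the other neurons, 71.1 to 83.1% had 2 or more UMIs of *ChAT* and *VAChT*, 25.8 to 42.1% of *VGlut* and 3.06 to 12.9% of *Gad1* and *VGAT*, and 17.9 to 34.3% had more than 1 of these marks.

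UMIs were summed per library and side without the genes that chose the cells, and levels are given as normalised CPM, UMIs per 1000000 on totals scaled by trimmed mean factors. A gene was called when its adjusted p was under 0.05 (edgeR's quasi-likelihood test, Benjamini-Hochberg adjustment) and its log2 fold change over 1 in size, and fold changes carry their standard error. Of 7088 genes tested, 1697 were called higher in photoreceptors, which was 23.9% of them, and 1754 were called higher in other neurons, which was 24.7%, or 48.7% in either direction. The levels of the 2 sides did not overlap over the 4 libraries in 4124 genes (58.2%). A share of a list near these percentages is therefore no result about that list. All 11 photoreceptor markers, *trp* and *chp* among them, were called higher in photoreceptors and all 7 lamina neuron markers, *bsh*, *erm* and *ort* among them, in other neurons. Of 9 markers of neurons outside the retina, 7 were called higher in other neurons, *Rbp9* was called higher in photoreceptors and *nSyb* was not called. The p-values do not cover the sorting of cells by the same counts. The scaling matters for the balance of calls. A few photoreceptor genes took a large share of the UMIs, and *Arr2* alone had 129389, 224694, 231420.4 and 149604 CPM in photoreceptors. On plain library totals the median log2 fold change of all genes moved from 0.01 to -0.95, and 619 genes were called higher in photoreceptors and 3424 in other neurons, so that 15.3% instead of 49.2% of the calls were higher in photoreceptors. Fold changes below are therefore relative to the median gene, and counts on plain totals are given beside the lists whose calls they change.

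**Figure D1:**
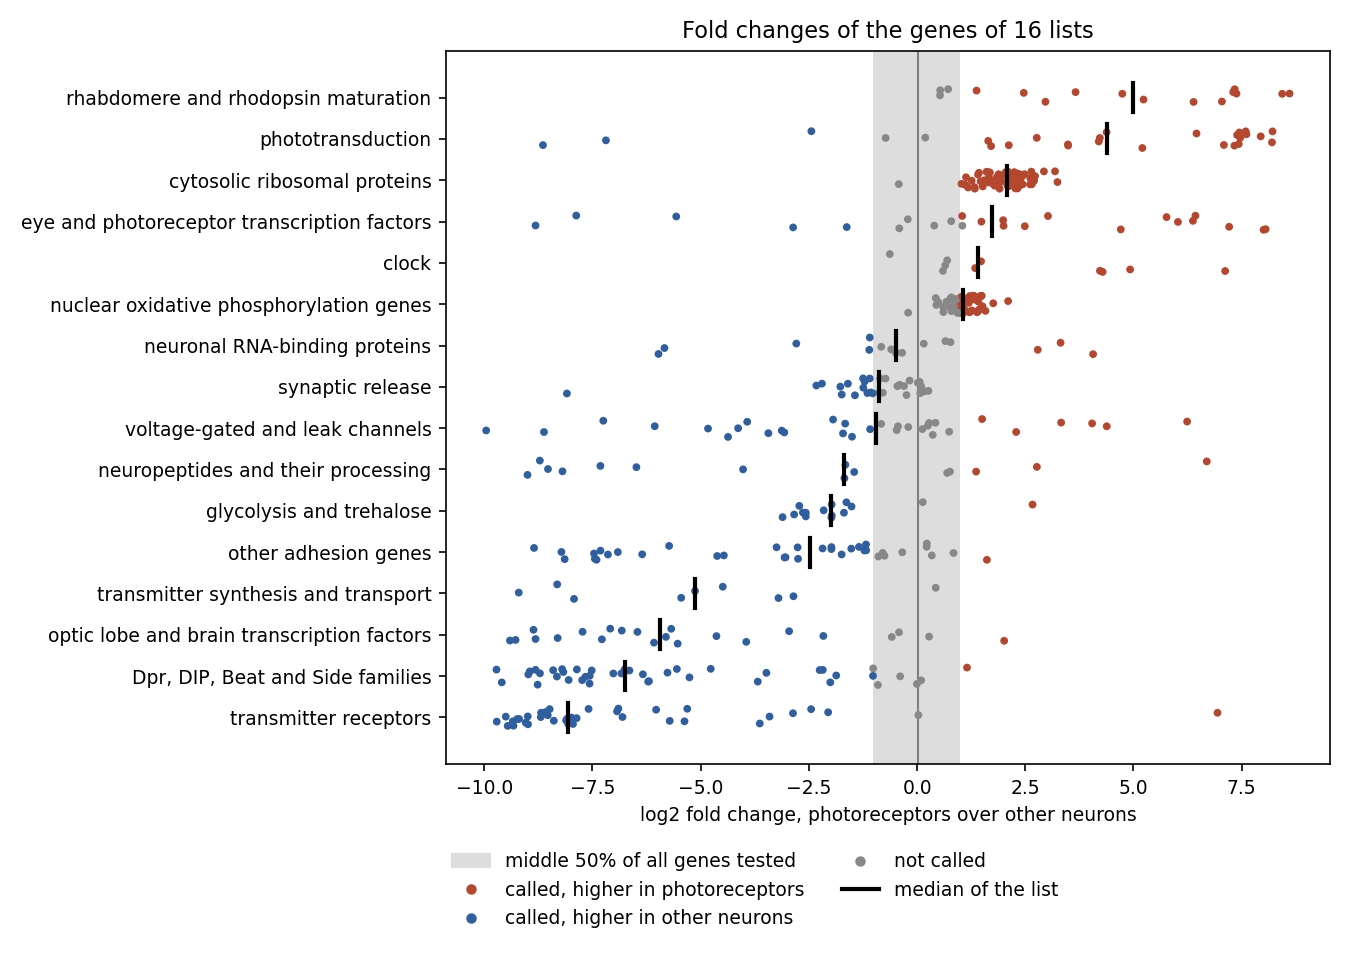
Each point is the log2 fold change (x axis, photoreceptors over other neurons) of 1 gene of 16 lists (y axis), coloured by its call, with the list median as a black bar and the middle 50% of all 7088 genes as a grey band. Phototransduction and rhabdomere genes lie to the right, with medians of 4.38 and 4.99, transmitter receptors to the left, with a median of -8.06, and transmitter release genes near the band, with a median of -0.88.

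Most genes of the phototransduction cascade stood far above other neurons. Of 27 genes tested, 22 were called higher in photoreceptors, 3 were called higher in other neurons and 2 were not called, with a median log2 fold change of 4.38 against 0.01 for all genes (20 and 4 called on plain totals). All 3 subunits of the visual G protein were higher. *Galphaq*, its alpha subunit, had 11722, 12042, 7271 and 16771 CPM in photoreceptors and 194, 104, 87.3 and 164 in other neurons, a log2 fold change of 6.46 ± 0.22 (adjusted p = 4.3e-07). *Gbeta76C*, the eye-enriched beta subunit, differed by 7.94 ± 0.30, and *Ggamma30A*, the gamma subunit and the second most abundant transcript of the called genes, by 2.77 ± 0.21, with 43579.6, 47537, 38264 and 45576 against 8820.4, 4396, 5833 and 7421 CPM. The fold change of the gamma subunit was smaller than those of the alpha and beta subunits, and other neurons held 4396 CPM or more of it.

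The enzymes of the phosphoinositide cycle followed, 7 of 8 called higher in photoreceptors. *norpA*, the phospholipase C that rhodopsin activates through Gq, had 11114, 6234, 7145 and 7268 CPM in photoreceptors and 490.2, 304, 389 and 332 in other neurons (4.38 ± 0.14, adjusted p = 3.5e-07). *rdgA*, the diacylglycerol kinase, *Cds*, the CDP-diacylglycerol synthase, and *Pis*, the phosphatidylinositol synthase, differed by 3.49 ± 0.21, 3.49 ± 0.15 and 4.22 ± 0.15. *inaE*, a diacylglycerol lipase, was the exception, with 150.1, 98.3, 106 and 114 CPM against 109, 134, 77.1 and 93.3 and overlapping sides (0.19 ± 0.17, adjusted p = 0.34).

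The light-gated channels and the scaffold that holds them were among the largest differences of the cascade. *trp*, the main light-gated channel, had 5005, 2881, 2914 and 4631 CPM in photoreceptors and 39.7, 17.9, 13.4 and 23.5 in other neurons, and *trpl*, its partner channel, 5425, 3299, 4322 and 5202 against 43.7, 20.6, 16.1 and 25.6. The sides lay far apart in each library. The log2 fold changes were 7.39 ± 0.20 and 7.47 ± 0.24, and those of *inaD*, the scaffold, *inaC*, the eye protein kinase C, *ninaC*, the myosin III kinase, and *rtp*, the retinophilin, were 7.59 ± 0.26, 7.45 ± 0.31, 7.43 ± 0.30 and 8.21 ± 0.36. *Trpgamma*, another TRPC channel gene that associates with TRPL in vitro, was the reverse, with 1 UMI in all photoreceptors and 73 in the other neurons. Counted over the sums, that is a ratio of 256 with an exact 95% counting interval of 44.5 to 10249.

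Shut-off genes were split. *Arr2*, the main visual arrestin, was the most abundant of all called transcripts and differed by 8.20 ± 0.33, and *Arr1*, the minor arrestin, by 7.61 ± 0.28, with 16455, 20216, 29107 and 17445 against 141, 89.4, 107 and 84.3 CPM. *rdgC*, the rhodopsin phosphatase, was also higher in photoreceptors (4.20 ± 0.20). Of the G protein-coupled receptor kinases, *Gprk1* had 299, 250.4, 241 and 185 CPM in photoreceptors and 457, 373, 453 and 325 in other neurons, under the fold limit (-0.73 ± 0.11). *Gprk2* was called higher in other neurons, with 40.2, 32.6, 46.9 and 27.0 against 200.02, 175, 216 and 191 CPM (-2.44 ± 0.14, adjusted p = 3.5e-06). The 2 sodium-calcium exchangers went opposite ways. *Calx*, which extrudes calcium after the light response, was higher in photoreceptors (5.20 ± 0.31). *Nckx30C*, a potassium-dependent exchanger, had 8.87, 4.14, 5.55 and 3.47 CPM in photoreceptors and 3904, 1174, 1471 and 2363 in other neurons (-8.64 ± 0.30, adjusted p = 4.3e-07). The sides did not overlap in either gene.

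**Figure D2:**
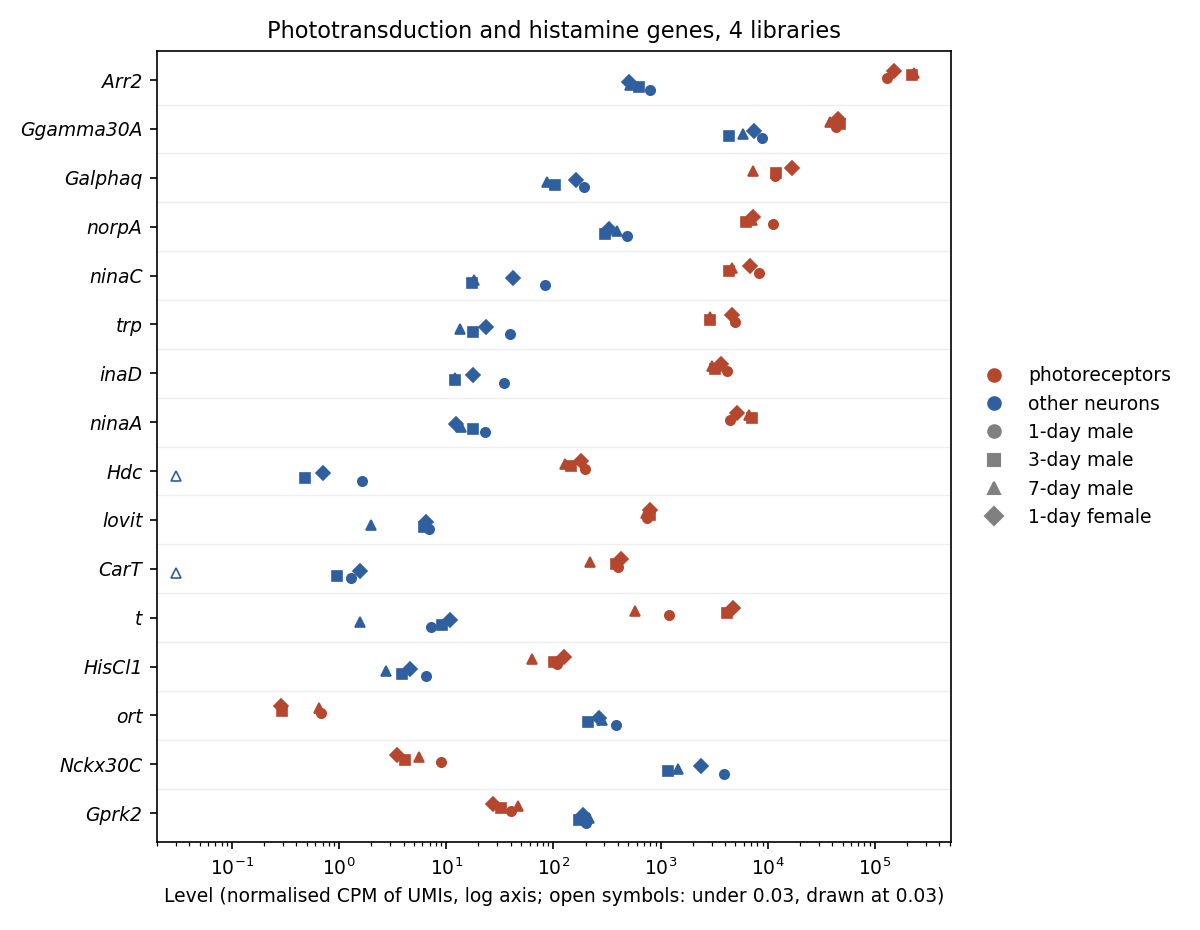
Levels (x axis, normalised CPM, log scale) of 16 phototransduction and histamine genes (y axis) in photoreceptors (red) and other neurons (blue), 1 symbol per library. The sides are apart in every gene, with *ort*, *Nckx30C* and *Gprk2* on the side of the other neurons, and *Ggamma30A* is the highest of the 16 genes in other neurons. Open symbols mark libraries at 0.

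Genes of the rhabdomere and of rhodopsin maturation were called higher in photoreceptors in 13 of 16 tested and in other neurons in 0 (12 and 0 on plain totals), with a median log2 fold change of 4.99. *chp*, the adhesion protein chaoptin of the microvilli, had 2909.6, 1699.6, 1749 and 2388 CPM in photoreceptors and 30.0, 7.65, 6.68 and 12.9 in other neurons (7.38 ± 0.28). *eys*, which builds the space between rhabdomeres, *prom*, its membrane partner, *Cpn*, the calcium buffer calphotin, and *crb*, the apical determinant, differed by 5.23 ± 0.39, 7.04 ± 0.34, 7.34 ± 0.29 and 4.74 ± 0.21. Among the chaperones, *ninaA*, the cyclophilin that Rh1 needs to leave the endoplasmic reticulum, had 4499, 7223, 6755 and 5214 CPM against 23.1, 17.7, 13.8 and 12.4 (8.44 ± 0.30). *ninaG*, an oxidoreductase needed for the chromophore of Rh1, had the largest difference of this list (8.61 ± 0.23). *Xport-B*, a chaperone of TRP and Rh1 transport, and *Cnx99A*, a calnexin, differed by 7.30 ± 0.18 and 2.97 ± 0.12. The general trafficking factors differed less: *Rab6* was called (1.37 ± 0.15), while *Rab11* (0.53 ± 0.12), *Rtnl1* (0.53 ± 0.12) and the polarity gene *sdt* (0.72 ± 0.15) lay under the fold limit.

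The genes that make, store and recycle histamine lay on the photoreceptor side, and its main receptor of lamina neurons on the other. Of 8 genes tested, 5 were called higher in photoreceptors, 2 in other neurons and 1 was not called. *Hdc*, the enzyme that makes histamine, had 198, 146, 129.6 and 182 CPM in photoreceptors and 1.63, 0.478, 0 and 0.711 in other neurons (7.55 ± 0.30, adjusted p = 6.8e-07). *lovit*, the vesicular transporter that photoreceptors need to store histamine, had 752, 793, 725 and 801 CPM against 6.87, 6.22, 1.97 and 6.542 (7.08 ± 0.25). *Vmat*, the vesicular monoamine transporter, had 5.09, 7.09, 14.5 and 7.51 CPM in photoreceptors and 14.9, 10.3, 0.786 and 2.84 in other neurons, with overlapping sides (0.22 ± 0.69, adjusted p = 0.79). The recycling genes *CarT*, the carcinine transporter, and *t*, the hydrolase that frees histamine from carcinine, were among the most divided. *CarT* had 399, 384, 218 and 426 CPM against 1.29, 0.957, 0 and 1.56 (8.39 ± 0.26), and *t* had 1196, 4182, 576 and 4712 against 7.21, 9.09, 1.57 and 10.8 (8.32 ± 0.33). Within photoreceptors *t* varied most of these genes between libraries, lowest at 7 days and highest in females, with 1 library each. *e*, the enzyme that couples histamine to beta-alanine and is known from glia, was higher in other neurons at low levels, with 3.20, 2.19, 1.96 and 2.58 against 33.2, 12.2, 40.9 and 44.1 CPM (-3.56 ± 0.29). The 2 histamine-gated chloride channels lay on opposite sides. *ort*, the receptor of lamina neurons, had 0.683, 0.296, 0.653 and 0.286 CPM in photoreceptors and 387, 212, 282 and 265 in other neurons (-9.31 ± 0.20, adjusted p = 2.7e-07), and *HisCl1* had 108, 102, 62.5 and 126 in photoreceptors and 6.53, 3.83, 2.75 and 4.55 in other neurons (4.47 ± 0.18, adjusted p = 7.0e-07).

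Genes that make and load the transmitters of other neurons were called higher in other neurons in 8 of 9 tested and in photoreceptors in 0. *VGlut*, the vesicular glutamate transporter, had 2.68, 0.828, 0.980 and 0.429 CPM in photoreceptors and 1196, 392, 760.3 and 465 in other neurons (-9.20 ± 0.26). *Gad1*, which makes GABA, and *VGAT*, its vesicular transporter, were at most 0.37 CPM in photoreceptors and differed by -7.93 ± 0.33 and -8.31 ± 0.36. *Gad1* was uneven among the other neurons, at 49.0, 176, 2.75 and 26.7 CPM. *ChAT*, choline acetyltransferase, and *VAChT*, the vesicular acetylcholine transporter whose gene lies inside that of *ChAT* on the same strand, were less far apart. *ChAT* had 17.7, 12.7, 21.7 and 21.1 CPM in photoreceptors against 524, 261, 298 and 602 in other neurons (-4.49 ± 0.22), and *VAChT* 28.4, 17.8, 33.1 and 18.5 against 1173, 609, 774 and 821 (-5.13 ± 0.20). *ChT*, the choline transporter, had 5.15, 5.97, 9.63 and 8.08 CPM in photoreceptors and 3.95, 16.02, 1.57 and 3.13 in other neurons, overlapping and not called (0.43 ± 0.54, adjusted p = 0.49). Without the 3-day library, whose other neurons were highest, it was called higher in photoreceptors (1.16, adjusted p = 0.0346).

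Transmitter receptors had the lowest median of the 16 lists plotted, with 35 of 37 called higher in other neurons, 1 called higher in photoreceptors and a median log2 fold change of -8.06. All 10 acetylcholine receptor genes and all 6 GABA receptor genes tested were higher in other neurons. *nAChRbeta1* had 0.998, 0.650, 0.163 and 0.250 CPM in photoreceptors against 279.6, 611, 311 and 267 in other neurons (-9.20 ± 0.38), *mAChR-A*, a muscarinic receptor, differed by -9.46 ± 0.29, and *Rdl*, the GABA-gated chloride channel, had 1.86, 0.591, 0.980 and 0.322 against 432, 686, 141 and 236 CPM (-8.69 ± 0.45). *nAChRalpha4* was the one nicotinic subunit with a clear level in photoreceptors, 74.4, 31.3, 36.1 and 69.0 CPM, against 554, 165, 201 and 279 (-2.45 ± 0.16). *GluClalpha*, the glutamate-gated chloride channel, *KaiR1D*, a kainate-type receptor, and *Nmdar2*, an NMDA receptor subunit, differed by -7.95 ± 0.27, -9.71 ± 0.26 and -7.99 ± 0.24. *Ekar*, the kainate-type receptor known from photoreceptor terminals, was the gene called the other way. It had 413, 258, 236 and 301 CPM in photoreceptors and 4.38, 1.43, 0.393 and 2.84 in other neurons (6.94 ± 0.27, adjusted p = 6.2e-07). *DopEcR*, a receptor for dopamine and ecdysteroids, was the gene not called, at 741, 775, 817 and 647 CPM in photoreceptors and 765, 696, 885 and 593 in other neurons (0.03 ± 0.11, adjusted p = 0.82). The other amine receptors were lower in photoreceptors, from *Oamb* (-2.05 ± 0.24) to *5-HT2B* (-9.34 ± 0.24).

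The machinery of transmitter release differed far less than transmitters and receptors. Of 29 genes tested, 14 were called higher in other neurons, 15 were not called and 0 were called higher in photoreceptors, with a median of -0.88. Apart from *Fife*, the log2 fold changes lay between -2.33 and 0.26. *nSyb*, the vesicle SNARE, had 2348, 1923, 2003 and 1985 CPM in photoreceptors and 2251, 1482, 1478 and 2257 in other neurons (0.17 ± 0.14, adjusted p = 0.3). *comt*, the NSF ATPase, *alphaSnap*, its adaptor, and *cpx*, complexin, also overlapped between the sides (0.06 ± 0.12, 0.09 ± 0.11 and -0.40 ± 0.14). The target SNAREs and the main calcium sensor were called. *Syx1A*, syntaxin, and *Snap25* differed by -1.74 ± 0.11 and -1.25 ± 0.12, and *Syt1*, the synaptotagmin of fast release, had 652, 362, 437 and 437 against 1727, 948, 969 and 1518 CPM (-1.44 ± 0.14). *Syt7*, a second synaptotagmin, differed by -2.20 ± 0.13.

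At the active zone, *brp*, the Bruchpilot scaffold of the T-bar, had 138, 76.4, 95.2 and 111 CPM in photoreceptors and 691, 406, 421 and 595 in other neurons (-2.33 ± 0.12, adjusted p = 1.8e-06). *cac*, the calcium channel of the active zone, had 234, 148, 197 and 152 against 499, 306, 413 and 396 (-1.15 ± 0.12), and *Rbp*, the RIM-binding protein, differed by -1.77 ± 0.12. *Rim* had 242, 199, 340.1 and 185 CPM against 282, 238, 171 and 208 with overlap (0.07 ± 0.22), as did *stj*, the alpha2delta subunit (0.02 ± 0.12). *Fife*, a Piccolo-RIM related scaffold, was nearly missing in photoreceptors, with 0.473, 0.236, 0 and 0.107 CPM against 120.1, 63.1, 22.4 and 38.0 (-8.09 ± 0.21, adjusted p = 2.7e-07). On plain library totals 23 instead of 14 genes of this list were called higher in other neurons and still 0 in photoreceptors.

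**Figure D3:**
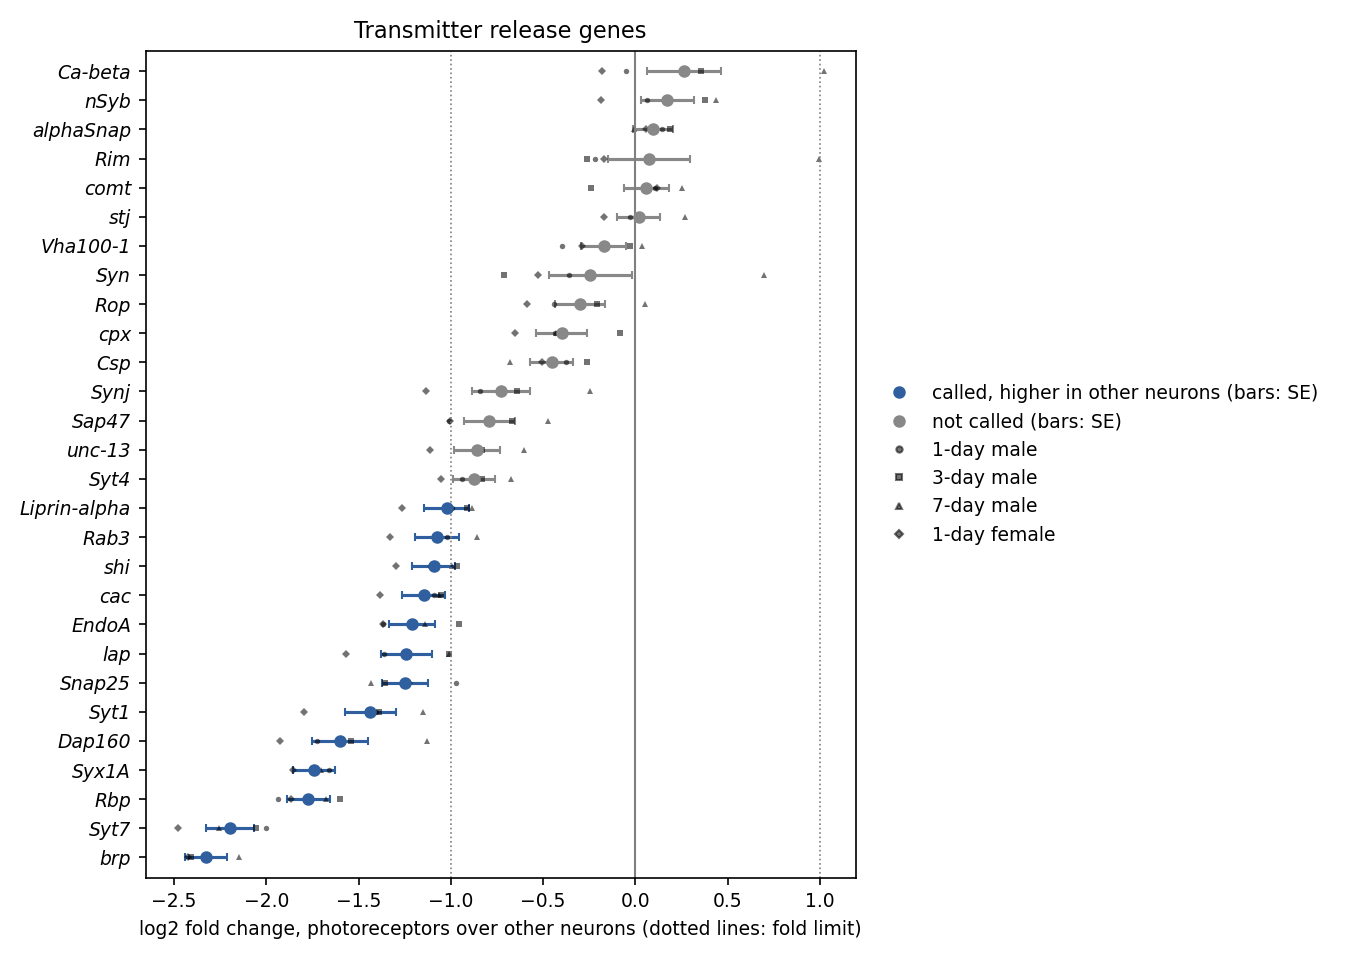
Log2 fold change (x axis) of 28 transmitter release genes (y axis), with bars for the standard error, blue where called and grey where not, and small symbols for the ratio in each library. *brp* and *Syt7* lie farthest to the left, *nSyb*, *alphaSnap*, *Rim*, *comt* and *stj* lie around 0, and *Fife*, at -8.09, is off this scale and not drawn.

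Sodium channel genes were lower in photoreceptors, and potassium channels went both ways. Of 32 genes tested, 4 of them sodium pump subunits and the rest of channels, 6 were called higher in photoreceptors and 16 in other neurons (5 and 20 on plain totals). The pump subunits gave 2 of the 6 and 0 of the 16. All 8 genes of the sodium channel group were called higher in other neurons. *para*, the voltage-gated sodium channel (chromosome X, 16455027 to 16533096 on the dm6 assembly), had 172, 126, 183 and 156 CPM in photoreceptors and 3618, 2008, 2238 and 3607 in other neurons (-4.13 ± 0.19, adjusted p = 1.4e-06). Its accessory subunit *Teh1* had 1.10, 0.532, 1.47 and 0.429 against 384, 175, 258 and 391 (-8.62 ± 0.34), whereas *tipE* and *Teh2* differed by -1.94 ± 0.16 and -1.66 ± 0.13. *NaCP60E*, a related channel, and *na*, the leak channel, differed by -7.25 ± 0.29 and -4.37 ± 0.29.

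Of 16 potassium channel genes, 3 were called higher in photoreceptors and 7 in other neurons, beside 23.9% and 24.7% of all genes. *eag* had 424, 318, 345 and 358 CPM in photoreceptors and 40.6, 68.9, 9.83 and 39.8 in other neurons (3.33 ± 0.40), *KCNQ* had 92.6, 51.8, 41.6 and 56.8 against 9.28, 2.87, 1.57 and 1.85 (4.04 ± 0.28), and *Shab*, which carries the delayed rectifier current of photoreceptors, had 59.3, 40.9, 29.2 and 35.1 against 18.9, 31.8, 4.72 and 9.24 (1.50 ± 0.31), overlapping through the 3-day library and not called on plain totals (0.54, adjusted p = 0.161). *Sh*, the channel of the fast A current, had the highest level of them, 3128, 1399, 1438 and 1960.0 CPM against 1527, 907, 829 and 1375, under the fold limit (0.74 ± 0.13, adjusted p = 0.0014, and -0.23 on plain totals). In other neurons *Shal*, *Shaw* and the background channel *Task7* were higher (-3.07 ± 0.13, -3.92 ± 0.14 and -4.83 ± 0.33), and *Task6*, a leak channel, had 0.551, 0.0591, 0.327 and 0.215 CPM in photoreceptors against 352, 256, 329 and 307 (-9.96 ± 0.30). *Ih*, the hyperpolarisation-activated channel, had 23.8, 15.5, 31.5 and 17.6 against 1466, 1175, 1378 and 1694 (-6.06 ± 0.23). *ClC-a*, a chloride channel, was on the photoreceptor side, with 659, 259, 281 and 418 CPM against 9.19, 2.15, 5.90 and 4.98 (6.24 ± 0.21), as were the sodium pump beta subunits *nrv1* (4.38 ± 0.41) and *nrv2* (2.29 ± 0.32). The pump's alpha subunit *Atpalpha* lay under the fold limit (-0.83 ± 0.13).

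The photoreceptor side was not uniform in these neuronal genes. Inner and outer photoreceptors were set against each other with the same fit, a comparison chosen after seeing both levels, with the 2609 cells over both rhodopsin thresholds counted as inner. Of 6824 genes, 404 (5.92%) were called higher in inner and 162 (2.37%) in outer cells. Set against the same other neurons one at a time, outer cells gave 1709 calls higher in photoreceptors (24.6%) and 1873 higher in other neurons (27.0%), 51.6% in all, and inner cells 1485 (21.3%) and 1674 (24.0%), 45.3% in all. *para* had 8.22, 4.02, 4.43 and 5.31 CPM in outer and 508, 396, 487 and 509.9 in inner photoreceptors, with no overlap and a log2 fold change of 6.14 ± 0.14 (adjusted p = 1.0e-09). *igl*, a calmodulin-binding protein, had 33.5, 29.1, 19.4 and 23.5 in outer and 2615, 3179, 3207 and 3880.4 in inner cells (6.68 ± 0.19), while other neurons had 6320.3, 4648, 6305 and 7962 CPM, above the inner cells in each library. *Ca-alpha1T*, the T-type calcium channel, had 5.73, 1.91, 3.33 and 2.60 in outer and 283, 197, 276 and 302 in inner cells (6.003 ± 0.18). In the whole photoreceptor side against other neurons *Ca-alpha1T* had overlapped (0.42 ± 0.48). The genes *Teh3*, *Teh4*, *na*, *Shaw* and *nrv1* were also called higher in inner cells, by 2.11 ± 0.21, 1.18 ± 0.19, 2.12 ± 0.38, 4.45 ± 0.29 and 4.66 ± 0.17. *KCNQ*, *Shab*, *ClC-a* and *nrv2* were called higher in outer cells, by -1.64 ± 0.15, -1.26 ± 0.15, -1.77 ± 0.15 and -1.21 ± 0.10 (inner over outer).

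The cholinergic genes of photoreceptors lay mainly in the inner cells. *ChAT* had 2.21, 0.669, 0.831 and 1.50 CPM in outer and 49.6, 39.4, 56.9 and 67.3 in inner photoreceptors (4.88 ± 0.20, adjusted p = 5.1e-08). *VAChT* had 3.52, 0.669, 1.66 and 0.981 against 79.8, 55.9, 86.2 and 58.3 (4.97 ± 0.22), and *ChT* had 0.0903, 0.287, 0 and 0.173 against 15.6, 18.2, 26.2 and 26.4 (6.72 ± 0.26). For *ChAT* and *VAChT* every inner sum lay above every outer sum and below every sum of other neurons, and for *ChT* the inner sums lay among or above those of other neurons. UMIs of *ChAT* were found in 18.9, 11.1, 8.13 and 20.2% of the inner cells and in 1.20, 0.197, 0.126 and 0.728% of the outer cells, which had a median of 8200, 5346, 2537 and 10490.5 and of 7454, 4066.5, 1924 and 8204 UMIs. The 7 histamine genes tested were not called between the photoreceptor kinds. Of all 6824 genes, 5.92% were called higher in inner and 2.37% in outer cells. *Hdc* differed by -0.36 ± 0.07 and *lovit* by 0.12 ± 0.08. Phototransduction genes had 0 of 26 called higher in inner and 1, *inaF-B*, called higher in outer cells (-1.34 ± 0.10). The *inaF-B* locus holds *inaF-A*, *inaF-C* and *inaF-D* on the same strand. The counts of the histamine and phototransduction lists lie near the shares of all genes, so they are no result about these lists.

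**Figure D4:**
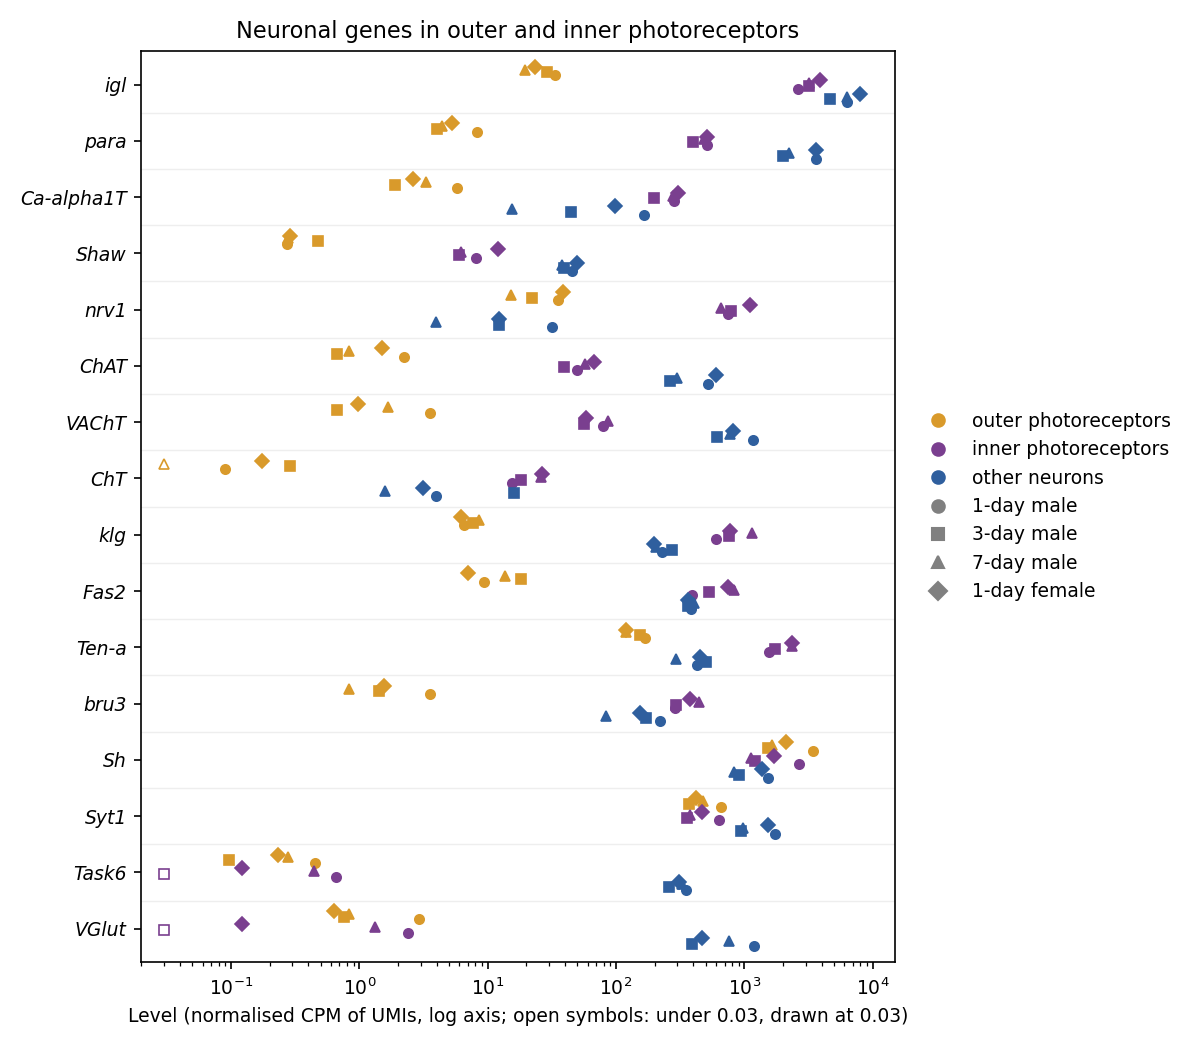
Levels (x axis, normalised CPM, log scale) of 16 neuronal genes (y axis) in outer photoreceptors (yellow), inner photoreceptors (purple) and other neurons (blue), 1 symbol per library. For *igl*, *para*, *ChAT* and *VAChT* the inner cells lie between the outer cells and the other neurons, for *Ca-alpha1T*, *nrv1*, *klg*, *Ten-a* and *bru3* they lie above both, and *Task6* and *VGlut* are low in both kinds of photoreceptor.

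Of 16 neuronal RNA-binding proteins, 3 were called higher in photoreceptors, 5 in other neurons and 8 not called (2 and 10 called on plain totals). These counts lie near the 23.9% and 24.7% of all genes, so they are no result about the list, and only single genes are described. The gene *fne* belongs to the ELAV family, and since it chose the cells it was left out. Its relative *elav*, the pan-neuronal splicing regulator, had 155, 112, 137 and 152 CPM in photoreceptors and 392, 206, 237 and 386 in other neurons, with no overlap (-1.09 ± 0.14, adjusted p = 2.6e-04, and under the fold limit without the female library). The third member, *Rbp9*, was higher in photoreceptors, with 1839, 1098, 1824 and 1346 CPM against 125, 81.1, 68.0 and 88.2 (4.07 ± 0.20, adjusted p = 1.7e-06). *mbl*, the Muscleblind splicing factor, had 4196, 4605, 6943 and 3481 against 381, 1243, 397 and 265 (3.32 ± 0.37), the 3-day other neurons being highest on their side. *Imp*, an mRNA-binding protein of young neurons, was called (2.79 ± 0.81), but its sides overlapped through the same library, at 77.8, 63.3, 97.0 and 79.1 against 5.58, 82.0, 6.68 and 4.41 CPM. That call was lost without the 1-day male (adjusted p = 0.0596), the 7-day male (adjusted p = 0.0613) or the female library (adjusted p = 0.0525). *shep*, the RNA-binding protein Alan shepard, had 737, 612, 710.2 and 572 in photoreceptors and 4742, 3671, 5657 and 4265 in other neurons (-2.79 ± 0.13), and *Rbfox1* had 4.41, 2.96, 8.16 and 2.29 against 270.4, 298, 188 and 229 (-5.97 ± 0.38). *bru3*, listed with the brain factors, overlapped (-0.42 ± 0.33) and was higher in inner than in outer photoreceptors by 6.997 ± 0.24.

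Eye transcription factors were called higher in photoreceptors in 14 of 24 tested and in other neurons in 5, beside 23.9% and 24.7% of all genes. The count toward other neurons lies near the share of all genes and is no result about the list. *gl*, glass, the zinc finger factor that photoreceptors need to form, had 257, 289, 325 and 362 CPM in photoreceptors and 1.98, 0.717, 0.393 and 0.711 in other neurons (8.01 ± 0.34, adjusted p = 9.4e-07). *Pph13*, a homeodomain activator of phototransduction genes, had 646, 803, 700.1 and 619 against 3.61, 2.87, 1.18 and 1.85 (8.05 ± 0.25), and *oc*, Orthodenticle, differed by 4.71 ± 0.21. The Pax factors *eyg* and *toe* and the homeodomain factor *dve* were low but clearly apart (7.21 ± 0.33, 6.37 ± 0.21 and 6.03 ± 0.26). Of the retinal determination genes, *so*, *toy* and *eya* were called (3.02 ± 0.38, 1.99 ± 0.31 and 1.999 ± 0.58), the last not in cells thinned to 1000 UMIs (0.36, adjusted p = 0.483), while *ey*, at 4.04, 2.13, 1.96 and 4.26 CPM, was not (1.05 ± 0.44, adjusted p = 0.063). *salm* and *salr*, the Spalt factors of inner photoreceptors, had mean levels of 0.915 and 1.03 CPM in outer cells and of 346 and 283 in inner cells. *svp*, known from developing outer photoreceptors, was higher in other neurons (-7.87 ± 0.34), as was *dac* (-8.81 ± 0.23). On plain library totals, 10 genes of the list were called higher in photoreceptors and 6 in other neurons.

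Factors of the optic lobe and brain were called higher in other neurons in 18 of 22 tested and in photoreceptors in 1 (20 and 1 on plain totals). *scro* had 1.60, 0.532, 0.490 and 0.465 CPM in photoreceptors and 588, 316, 397 and 652 in other neurons (-9.28 ± 0.34). *erm*, *zfh1* and *bsh*, known from lamina neurons, differed by -8.86 ± 0.30, -8.30 ± 0.27 and -7.73 ± 0.26. *jim*, a zinc finger gene, had 109.9, 98.6, 125 and 72.4 against 1458, 1301, 1979.7 and 1479.5 (-3.95 ± 0.16). *fru*, the factor of sex-specific circuits, was the one called higher in photoreceptors, with 282, 248, 219 and 175 CPM against 45.0, 56.4, 31.8 and 121 (2.01 ± 0.37), and within them it was higher in outer cells (-1.57 ± 0.16, inner over outer).

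Adhesion molecules of neurons were mostly lower in photoreceptors. In the Dpr, DIP, Beat and Side families of recognition proteins, 37 of 43 genes tested were called higher in other neurons and 1 in photoreceptors (40 and 0 on plain totals), with a median of -6.74. *beat-IIa* had 0.446, 0.236, 0.490 and 0.250 CPM in photoreceptors and 185, 159, 119 and 136 in other neurons (-8.81 ± 0.21), and *side-III* differed by -8.98 ± 0.34. *dpr7* was the gene called higher in photoreceptors, with 536, 1011, 644 and 765 against 245, 407, 366 and 299.6 CPM (1.15 ± 0.13, adjusted p = 1.3e-04), but not on plain totals (0.18, adjusted p = 0.251). Several genes with middling values were split between the photoreceptor kinds: *dpr9* had mean levels of 1.14 CPM in outer and 142 in inner cells (6.39 ± 0.17), *dpr1* 0.256 and 23.1 (6.11 ± 0.21), and *beat-IIb* 0.650 and 56.7 (6.05 ± 0.17). In all, 11 of 21 genes of these families were called higher in inner and 1 in outer cells, beside 5.92% and 2.37% of all genes.

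Of the other adhesion genes, 27 of 36 were called higher in other neurons and 1 in photoreceptors (31 and 0 on plain totals). *tutl*, the immunoglobulin protein Turtle, had 2.65, 1.60, 1.63 and 1.93 CPM in photoreceptors and 774, 428, 414 and 696 in other neurons (-8.22 ± 0.17), and *Nlg3*, a neuroligin, and *Dscam2* differed by -6.35 ± 0.20 and -5.73 ± 0.23. *Lar*, the phosphatase of photoreceptor targeting, and *Nrx-1*, neurexin, differed by -1.98 ± 0.11 and -1.98 ± 0.13. *Fas1* was called higher in photoreceptors, with 1548, 781, 925 and 922 CPM against 528, 297, 206 and 361 (1.61 ± 0.16, and 0.64 on plain totals, under the fold limit). *CadN*, N-cadherin, had 164, 98.9, 134 and 119 CPM against 129, 104, 64.9 and 111 with overlap (0.34 ± 0.19, adjusted p = 0.13). *klg*, an immunoglobulin protein, and *Ten-a*, a teneurin, were not called between the sides (0.23 ± 0.21 and 0.84 ± 0.22), yet inner cells exceeded outer cells by 6.52 ± 0.11 and 3.59 ± 0.18. *klg* had 6.50, 7.74, 8.59 and 6.17 CPM in outer and 604, 759, 1139 and 767 in inner photoreceptors, which lay below and above the 229, 275, 205 and 198 CPM of other neurons. *Fas2* had 9.44, 18.2, 13.6 and 7.04 in outer and 389.5, 526, 836 and 748 in inner cells (5.45 ± 0.23). In total 13 of 29 of these genes were called higher in inner and 2 in outer cells, beside 5.92% and 2.37% of all genes.

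Neuropeptide genes were sparse in photoreceptors. Of 15 genes of peptides and their processing tested, 10 were called higher in other neurons and 3 in photoreceptors (10 and 2 on plain totals). *Tk*, tachykinin, had 0.210, 0.0591, 0 and 0.0358 CPM in photoreceptors and 52.6, 20.1, 9.04 and 53.2 in other neurons (-8.53 ± 0.33), and *sNPF* differed by -6.48 ± 0.32. *Capa* was the peptide gene on the photoreceptor side, with 10.9, 10.5, 15.0 and 16.3 CPM, 1142 UMIs in photoreceptors and 3 in other neurons. Their ratio was 109, with an exact 95% counting interval of 37.0 to 527. Its UMIs were spread over 6.24, 3.18, 2.27 and 8.68% of the photoreceptors, with at most 5 UMIs in 1 cell, and inner and outer cells did not differ beyond the fold limit (-0.40 ± 0.12). Of the processing enzymes, *Phm*, the monooxygenase that amidates peptides, had 311, 413, 397 and 442 CPM in photoreceptors against 47.1, 52.6, 66.0 and 64.3 (2.77 ± 0.12), and *7B2*, the helper of a prohormone convertase, differed by 1.36 ± 0.12. *amon*, that convertase, was lower in photoreceptors (-1.66 ± 0.16), and *Cadps*, which primes dense core vesicles, differed by -1.68 ± 0.12.

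Ribosomal protein genes were higher in photoreceptors nearly throughout. Of 82 tested, 81 were called higher in photoreceptors and 0 in other neurons, with a median log2 fold change of 2.08. *RpL7A* had 3629, 4329.8, 5139 and 4055 CPM in photoreceptors and 425, 705, 758 and 427 in other neurons (2.93 ± 0.16), and *RpS10a*, a low-level duplicate, was the gene not called (-0.42 ± 0.25). The list took 13.1, 13.1, 16.2 and 12.8% of the UMIs of photoreceptors and 5.78, 7.89, 8.62 and 5.26% of those of other neurons. On plain library totals the call rests on fewer genes, 44 higher in photoreceptors and 1 in other neurons, with a median of 1.11.

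Nuclear genes of oxidative phosphorylation were called higher in photoreceptors in 39 of 63 tested and in other neurons in 0, with a median of 1.05, and this depended on the scaling. *ATPsynC*, the ATP synthase c ring, had 10563, 9191, 5282 and 12868 CPM in photoreceptors and 3467, 2968, 2442 and 3983 in other neurons (1.51 ± 0.15), and *ND-AGGG*, a subunit of complex I, differed by 2.10 ± 0.14. On plain library totals 1 gene was called in each direction and the median was 0.08. As shares of UMIs, the list took 10.02, 10.8, 7.21 and 11.3% in photoreceptors and 7.26, 10.8, 8.72 and 8.65% in other neurons, so the order of the sides differed between libraries. For the list as a whole, no direction holds under both scalings. *ND-AGGG* was still called higher in photoreceptors on plain totals (1.13), and *ATPsynC* kept its direction there under the fold limit (0.54).

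Glycolysis genes went the other way under either scaling, with 13 of 15 called higher in other neurons and 1 in photoreceptors, and the same counts on plain totals. *Eno*, enolase, had 356, 345, 231 and 371 CPM in photoreceptors and 1718, 1929.5, 1909 and 2089 in other neurons (-2.57 ± 0.16, adjusted p = 5.5e-06). *Pfk*, phosphofructokinase, *Gapdh1* and *Hex-A*, hexokinase, differed by -3.11 ± 0.15, -2.84 ± 0.13 and -2.72 ± 0.19. No sum of a photoreceptor library reached that of any library of other neurons in these 4 genes. *Treh*, trehalase, which frees glucose from trehalose, was the gene higher in photoreceptors, with 104, 85.0, 58.4 and 100.2 CPM against 16.5, 13.2, 12.6 and 12.7 (2.67 ± 0.15, adjusted p = 3.7e-06). *Mpc1*, a pyruvate carrier subunit, was not called (0.13 ± 0.19, adjusted p = 0.54). The list took 0.211, 0.163, 0.133 and 0.203% of the UMIs of photoreceptors against 1.35, 1.34, 1.26 and 1.63%.

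**Figure D5:**
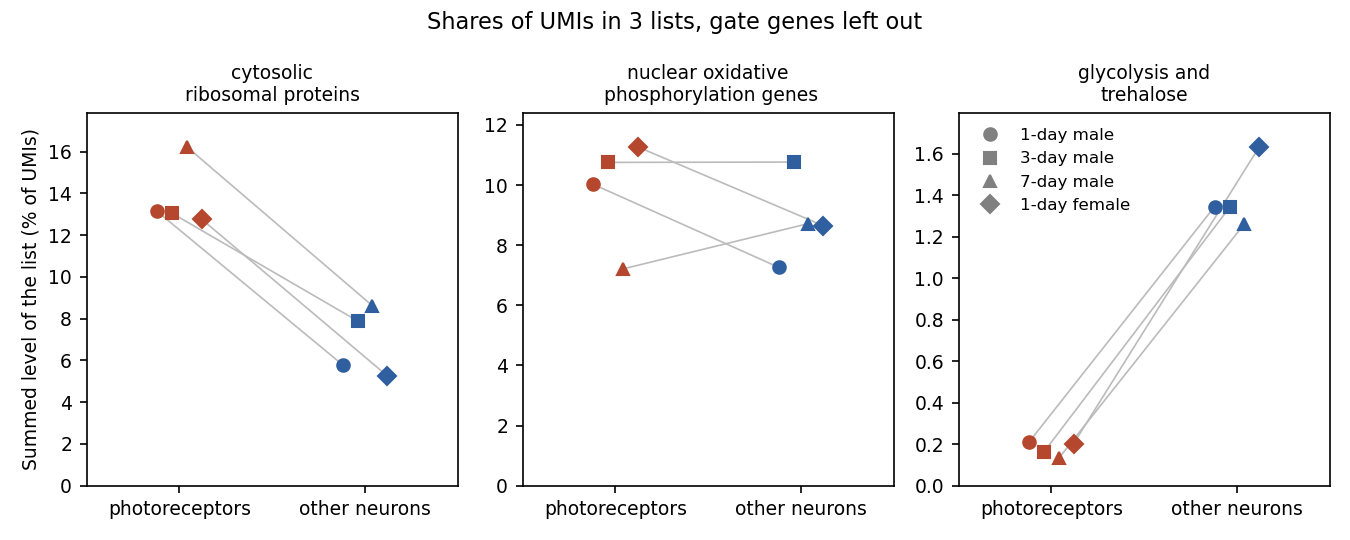
Share of UMIs (y axis, percent of the sum without the genes that chose the cells) of 3 lists in photoreceptors (red) and other neurons (blue), 1 symbol per library and a line joining the sides of a library. Ribosomal protein genes are higher in photoreceptors and glycolysis genes in other neurons in 4 of 4 libraries, while nuclear genes of oxidative phosphorylation cross.

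Core clock genes were called higher in photoreceptors in 6 of 10 tested and in other neurons in 0, beside 23.9% and 24.7% of all genes. *Clk*, the activator of the clock, had 78.7, 64.9, 113 and 56.3 CPM in photoreceptors and 0.859, 0.239, 0 and 0.427 in other neurons (7.12 ± 0.32, adjusted p = 1.2e-06). *tim*, *vri* and the blue-light receptor *cry* differed by 4.23 ± 0.30, 4.92 ± 0.34 and 4.29 ± 0.23, and *per* and *cyc*, with at most 24.8 CPM, by 1.48 ± 0.28 and 1.34 ± 0.25. *Pdp1*, a clock-controlled activator with other isoforms in many tissues, had 1945, 1492, 782 and 1899 against 1925, 2365, 2057 and 2659.7 CPM and was not called (-0.63 ± 0.22). On plain totals 4 genes were called higher in photoreceptors and 1 in other neurons, and *per* (0.52, adjusted p = 0.146) and *cyc* (0.38) lost their calls. In cells thinned to 1000 UMIs the list median was 0.65 instead of 1.41, and *cyc* was not called (0.54, adjusted p = 0.264). The time of day of dissection was not given in the sources used here.

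Outside the lists, several of the genes with the largest log2 fold changes toward photoreceptors were genes of inner cells. *CG10407* had 625, 227, 64.3 and 1226 CPM in photoreceptors (9.57 ± 0.33), with mean levels of 10.9 in outer and 1670.3 in inner cells. *Yp3*, a yolk protein gene, had 623, 788, 1360.5 and 1859.9 CPM in photoreceptors of both sexes against 2.23, 2.15, 1.18 and 3.56 in other neurons (8.76 ± 0.28). It was found in 86.5, 84.8, 83.5 and 85.6% of the inner and in 7.48, 5.21, 2.72 and 10.9% of the outer cells (6.76 ± 0.17, inner over outer). *CG16959* and *Lgr1*, a glycoprotein hormone receptor, were likewise higher in inner cells (7.65 ± 0.13 and 7.30 ± 0.16). *Lgr1* and *Skeletor* had 1 UMI each in other neurons, so that their ratios of 805 and 830 have counting intervals of 144 to 31816 and 149 to 32796. *Skeletor* was carried by few cells, with UMIs in 7.14, 3.52, 2.91 and 6.12% of the inner cells. *Achl* had 1199, 1166, 1416 and 773 CPM in photoreceptors (8.43 ± 0.33) and was higher in outer cells (-1.77 ± 0.15, inner over outer). *Pex7*, a peroxisomal import receptor with 3 UMIs in other neurons (ratio 356, counting interval 122 to 1726), and *CG13305* (8.36 ± 0.26) completed the set. On chromosome 3L, *Pex7* spans the whole of *Arr2* on the opposite strand and *CG13305* lies beside *Arr2* on its strand, and the part of reads from *Arr2* in their counts was not tested. By level, the calmodulin gene *Cam* had rank 3 among the genes called higher in photoreceptors. It had 24106, 25232, 22640 and 34761 CPM against 6080, 5425, 4945 and 8241 in other neurons (2.12 ± 0.13).

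Toward other neurons, the largest difference was that of *CG13739*, with 1.21, 0.709, 0.327 and 0.644 CPM in photoreceptors and 1394, 1426, 1841 and 2372 in other neurons (-11.03 ± 0.37, adjusted p = 4.1e-07), and *CG13954* overlaps it on the same strand. It was found in 58.5, 63.6, 70.1 and 61.3% of the other neurons and in 0.661, 0.21, 0.0258 and 0.336% of the photoreceptors. *CG11000* had the third highest level of the genes called on this side, 4260.0, 3140.3, 5159 and 5230.5 CPM, against 8.79, 3.96, 6.04 and 5.90 (-9.49 ± 0.24). *Grd*, a GABA receptor subunit, *Corin*, a serine protease gene, *PVRAP*, *CG15628* and *CG11357* differed by -9.50 ± 0.23, -9.41 ± 0.44, -9.38 ± 0.19, -9.38 ± 0.41 and -9.35 ± 0.32. *Octbeta3R*, an octopamine receptor, differed by -9.33 ± 0.28. *igl* was the most abundant gene called on this side (-2.53 ± 0.16 over all photoreceptors), and *shakB*, an innexin of electrical synapses, had 107, 95.5, 104 and 119 CPM in photoreceptors and 3511, 2036, 2940.1 and 3785 in other neurons (-4.82 ± 0.17).

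Apart from *Pdh*, markers of other cell types of the eye moved with the sides at low levels. All 5 pigment cell genes tested were called higher in photoreceptors, and the summed level of the 8 listed was 116 to 420 CPM of UMIs in photoreceptors, 28.7 to 183 in other neurons and 3352 to 10984 in the cells of neither side. Levels of the cells of neither side, here and for the glial genes below, were taken without scaling factors. *Pdh*, which chose the cells, is not among the 8. It had 2586, 1754, 1606 and 1799 CPM in photoreceptors and 1129, 457, 384 and 273 in other neurons. These levels lay above the sum of the 8 on the same side in each library, and their source was not tested. *ninaB*, the carotenoid oxygenase that makes the chromophore, had 49.9, 57.3, 32.2 and 53.6 CPM in photoreceptors (2.21 ± 0.24), and *w*, the defining pigment transporter gene, had 4.65, 2.96, 1.47 and 3.65 against 3.09, 0.478, 0 and 0.142 with overlap. On plain totals 1 of these 5 was called. Of 8 glial genes tested 1 was called higher in photoreceptors (*nrv2*) and 4 in other neurons (1 and 5 on plain totals), *Eaat1* by -4.08 ± 0.31, with summed levels of 243 to 799 CPM in photoreceptors and 203 to 465 in other neurons, against 5383 to 6560 in the cells of neither side. *ct*, a homeodomain factor of cone cells and of some neurons, was called higher in other neurons (-5.53 ± 0.50), and the cone cell markers summed to 2.72 to 15.7 CPM in photoreceptors and 78.2 to 242 in other neurons. Leaving out every cell with a UMI of *moody* or *w* gave 1691 genes higher in photoreceptors and 1738 in other neurons. Hemocyte and muscle markers summed to at most 1.12 and 6.53 CPM on either side. Fat body markers summed to 71.8 CPM in photoreceptors and 68.8 in other neurons of the 1-day male library and to at most 16.4 on either side in the other libraries, and the part of these cells in the results was not tested.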

How the data were processed

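The authors aligned reads of the 10x Chromium 3' v3.1 libraries with Cell Ranger 6.0.1 to dm6 (submitters' processing notes), and deposited counts of UMIs per gene and cell barcode. Filters on cells were those of the opening, no doublet caller was run, and upper limits on genes per cell served as an alternative. Counts were summed per library and side (8 sums), 23 genes that chose cells or are mitochondrial were left out, and the 4 libraries, each holding both sides in the same droplet run, were the replicates, kept as a block. edgeR 4.0.16 (R 4.3.3) gave trimmed mean factors and quasi-likelihood tests with Benjamini-Hochberg adjustment over all genes kept by filterByExpr. Cells of a library come from the same pooled eyes, so p-values measure the spread between these libraries. DESeq2 1.42.0 was an alternative. On simulated counts, 87 of 100 genes changed 2-fold and 99 of 100 changed 4-fold passed the adjusted p. Of 6838 others, 0 passed both the adjusted p and the fold limit. The simulation gave every gene the same dispersion (0.0323) and no library effect, and changed far fewer genes than were called here. Its error rate therefore need not hold for these data. Outside the lists, the text names the 12 genes with the largest fold changes per direction (at least 100 UMIs in the higher side of every library, 1 direction in 4 of 4) and the 5 with the highest levels. Members and lists were chosen with earlier results of these data known. Counting intervals are exact at 95% and cover counting error only. Positions are from Ensembl release 115. *Teh2* and *Teh3*, *Xport-B* and *Xport-A*, *Syx1A* and *eIF4EHP*, *Galphaq* and *CG45086*, and *Clk* and *CG32371* share loci on 1 strand, as do *ChAT* and *VAChT*, *para* and *Cnx14D*, *igl* and *CG43068*, *klg* and *CG6660*, *beat-IIb* and *CG44259*, and *svp*, *shakB* and *Ten-a* with genes inside them. Their split of reads is uncertain. Promoter sequences were not analysed here.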

Additional observations from a re-analysis of the deposited data

Results flagged for a closer look

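Of 186 genes followed, the ratio of photoreceptors to other neurons in 1 library stood apart from the other 3 for 13 (6.99%), by Dixon's criterion for 4 values, which chance meets in about 1 in 20 groups. The 7-day male library stood apart for 7 of them. Its log2 ratio was 8.53 for *lovit* (6.77 to 6.99 in the others), 1.00 for *Rim* (-0.26 to -0.17), 1.51 for *dpr9* (-1.10 to -0.80), -5.52 for *Fife* (-8.47 to -7.99), -6.28 for *Nmdar2* (-7.99 to -7.91), 0.86 for *Rab6* (1.48 to 1.61) and 1.11 for *ATPsynC* (1.61 to 1.69). That library had the fewest UMIs. In these ratios a side with fewer than 3 UMIs in a library was set to 3 UMIs. This floor set the level of *Fife* in photoreceptors at 7 days (0 CPM) and of *Nmdar2* in photoreceptors at 3 and 7 days (0.0591 and 0.327 CPM). It also set *Clk* in other neurons at 3 and 7 days (0.239 and 0 CPM), so the ratios of these 3 genes rest partly on it. In the 3-day male library the log2 ratio was -0.37 for *Imp* (3.80 to 4.17 in the others), 3.44 for *salr* (6.92 to 7.32), 3.26 for *ninaB* (1.89 to 2.03) and 0.74 for *Rtnl1* (0.44 to 0.49). *Imp* was thus lower in photoreceptors in that library alone and higher in the other 3, a difference that was not tested. In the 1-day female library it was 7.04 for *Clk* (6.50 to 6.58) and -1.38 for *cac* (-1.09 to -1.05). The median log2 ratio of the adhesion genes outside the Dpr, DIP, Beat and Side families also stood apart in the 7-day male library, at -2.02 (-2.68 to -2.57 in the others).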

How the results depend on the processing

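Against 1697 genes called higher in photoreceptors and 1754 in other neurons, plain library totals gave 619 and 3424, and dropping the fold limit gave 2704 higher in photoreceptors. The fit with no replicate block gave 1670 and 1748, DESeq2 1646 and 1803, relative log expression factors 1633 and 1801, no filter on low counts 2069 and 2031, and thinning to 1000 UMIs 1415 and 1549. Free RNA was not measured. Subtracting an assumed share of it, 5% of each sum with the gene profile of all cell barcodes of the library, gave 1576 and 1897. Leaving out 1 library at a time gave 1648 to 1806 and 1712 to 1925. Signs were compared for the 186 genes followed, and none of these that was called in either of the fits compared changed sign. Of 186 genes followed, 18 that were not called turned from positive to negative on plain totals, among them *Ten-a* (-0.13), *sdt* (-0.25), *Rab11* (-0.44), *Rtnl1* (-0.44), *CadN* (-0.63), *klg* (-0.74) and *nSyb* (-0.80), and at most 7 changed sign under any other setting. On plain totals *7B2* (0.39), *ATPsynC* (0.54), *Rab6* (0.40), *cyc* (0.38), *eya* (1.06, adjusted p = 0.122) and *w* (0.97) lost their calls, and *Gprk1* (-1.70), *cpx* (-1.37), *Atpalpha* (-1.80), *Pdp1* (-1.60) and *RpS10a* (-1.38) were called higher in other neurons. *toy* fell under the fold limit in thinned cells (0.81), and *Teh3* lost its call with no replicate block (adjusted p = 0.0745). *w* also lost its call with no replicate block (adjusted p = 0.0969), and the cause was not tested. At 2094 UMIs per photoreceptor the 7-day library limits genes of few UMIs most. The promoter motif search was not run, since no promoter sequences were used here.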

Other observations

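The 2 sides did not divide all cells that carried neuronal RNA. Cells that met a rhodopsin limit of photoreceptors and held 2 or more UMIs of *fne* numbered 136, 36, 24 and 54 and had a median of 12959.5, 8368, 5939.5 and 14658.5 UMIs, above the medians of both sides in each library. Their median *nSyb* was 1912, 1295, 1277 and 1528 CPM and their median *trp* 1916, 829, 874 and 1537 CPM. Cells with exactly 1 UMI of *fne* that otherwise met the limits of other neurons had a median of 1659, 1624, 1185.5 and 1794 UMIs and a median *trp* of 0 in each library. Counting those cells as other neurons gave 1699 genes called higher in photoreceptors and 1778 in other neurons.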
